A study of Mus musculus with 8 samples.

Results

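The subject is the skin transcriptome of mice with a spontaneous mutation, labelled hairloss, set against that of wildtype mice at postnatal day 16. The comparison covers every protein-coding gene with a value of at least 1 FPKM (fragments normalized for length of transcript and for depth) in either library, which was 13452 of 21976 protein-coding genes and of 55418 genes in all. The hairloss library and the wildtype library were each made from total RNA of skin, and each group is 1 library. The series holds 8 such libraries, 1 for each genotype at days 0, 16, 19 and 28. The labels give neither the mutated gene, nor the strain, nor the body site, nor how many animals went into a library, and they name no transgene or other construct.

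Hair is made in cycles. In the growth phase, matrix cells around the dermal papilla divide and form the shaft, built of hair keratins cross-linked by keratin-associated proteins (KRTAPs), and the inner root sheath that moulds it; Wnt, BMP, hedgehog and FGF signals steer this process. The epidermis between the follicles renews itself from a basal layer and ends in a cornified envelope, and injured or inflamed epidermis switches on a separate set of keratins, S100 proteins and protease inhibitors. In the mouse, the first growth phase after birth is coming to its end at about this age.

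With 1 library a side no difference at day 16 has a replicate error, no test of it is possible, and higher and lower describe these 2 libraries. Differences are given on the scale log2(FPKM + 1), hairloss minus wildtype, on which the fold of a weakly expressed gene is understated. A gene was counted as past the size rule when it differed by at least 2-fold on this scale. Of all compared genes, 709 were higher in the hairloss library (5.27%) and 667 lower (4.96%), or 10.2% in either direction, and these shares are the background for the counts below. Of the higher genes 214 were under 1 FPKM in wildtype skin, and of the lower genes 112 were under it in hairloss skin. Such a gene entered the comparison through 1 library alone and had to differ, so a count that rests on such genes carries no weight of its own. Past 4-fold there were 148 higher and 177 lower genes, and past 8-fold 49 and 39. The median of all differences was -0.03, and 69.6% of genes lay within 0.5 of no difference. Just inside the rule stood the glutathione peroxidase gene Gpx2, at 56.7 FPKM in hairloss and 27.9 FPKM in wildtype skin, and just outside it the leukocyte surface gene Cd48, at 8.42 FPKM in hairloss and 3.72 FPKM in wildtype skin. On the lower side Trim40 was just inside, at 0.0793 FPKM in hairloss and 1.16 FPKM in wildtype skin, and Pfkfb2, an enzyme that regulates glycolysis, just outside, at 8.43 FPKM in hairloss and 17.9 FPKM in wildtype skin.

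**Figure D1:**
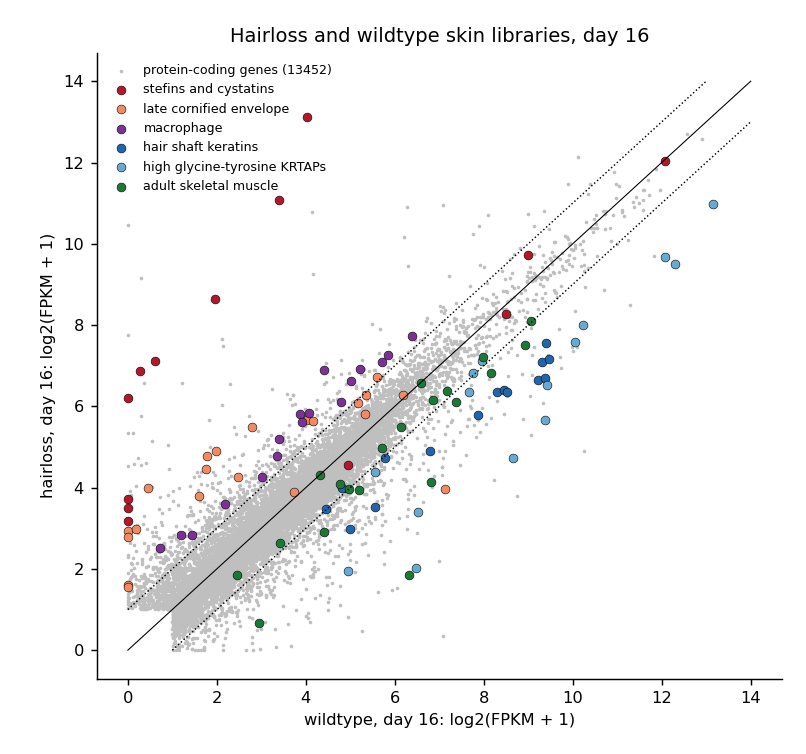
Level of each protein-coding gene in the hairloss library (vertical) against the wildtype library (horizontal) of day 16, both as log2(FPKM + 1), with 6 gene lists coloured. The solid line marks equal levels and the dotted lines a 2-fold difference; the macrophage genes lie above the upper dotted line, and most hair shaft keratins and glycine-tyrosine KRTAPs below the lower one.

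The depth, estimated from the spacing of the lowest values, was 43700000 fragments in the hairloss and 31600000 in the wildtype library, so that 3 fragments in a transcript of 1 kb equal 0.0687 FPKM in hairloss and 0.0949 FPKM in wildtype skin, counting error only. The Y-linked gene Ddx3y stood at 20.4 FPKM in hairloss and 20.1 FPKM in wildtype skin, and Xist, expressed from the inactive X chromosome, at 0.00961 FPKM in hairloss and 0.0158 FPKM in wildtype skin. The pair is thus matched for these markers of sex, which libraries of other days are not. Among the compared genes 28 were listed at exactly 0 in the wildtype library and 9 in the hairloss library. A 0 can be a failed estimate, and 4 of these genes, Tchh, Rptn, Sprr2d and Hrnr, are at 0 in some libraries and at 5 FPKM or more in all others. Sprr2d was at 0 in wildtype skin of days 19 and 28 as well, so its 0 may also be a true absence, which was not tested. The values of some genes that every cell uses were also low: Gapdh, an enzyme of glycolysis, stood at 6.08 FPKM in hairloss and 3.42 FPKM in wildtype skin. Col1a1, the gene of the main collagen chain of the dermis, at 486 FPKM in hairloss and 1236 FPKM in wildtype skin, was listed at 0 in the wildtype libraries of days 19 and 28.

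Structural genes of the hair shaft were lower in the hairloss library. Of 15 hair shaft keratins 13 were past the rule and all 15 lay below 0, with a median difference of -2.04 against -0.03 over all genes. The lowest of them was Krt33a, an acidic hair keratin, at 102 FPKM in hairloss and 663 FPKM in wildtype skin. Krt34, another acidic hair keratin, stood at 99.7 FPKM in hairloss and 594 FPKM in wildtype skin, and Krt81, one of their basic partners, at 135 FPKM in hairloss and 636 FPKM in wildtype skin. The members past the rule lay between -1.07 for Krt82 and -2.69 for Krt33a, and the smallest difference was that of Krt84, a keratin also known from the tongue and nail, at 14.8 FPKM in hairloss and 27.0 FPKM in wildtype skin.

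The KRTAPs varied more. All 19 compared high-sulfur KRTAPs were lower, with a median of -2.10, and their lead members stood apart from the rest: Krtap15 at 28.9 FPKM in hairloss and 1222 FPKM in wildtype skin, Krtap14 at 12.9 FPKM in hairloss and 427 FPKM in wildtype skin, and Krtap12-1 at 6.92 FPKM in hairloss and 76.8 FPKM in wildtype skin. Of 19 ultrahigh-sulfur KRTAPs 17 were lower, and their median was -2.25. Krtap5-2, the 1 that was higher, had 3.55 FPKM in hairloss and 0.252 FPKM in wildtype skin, while its neighbour in name Krtap5-1 had 1.42 FPKM in hairloss and 22.1 FPKM in wildtype skin. Of 15 glycine-tyrosine KRTAPs, which are known to enter the shaft early, 13 were lower and 0 higher (median -2.48). Krtap19-2 stood at 3.07 FPKM in hairloss and 87.5 FPKM in wildtype skin, and Krtap19-5 at 25.6 FPKM in hairloss and 400 FPKM in wildtype skin. Members of these subfamilies are near-identical, and the sources used here do not say how reads shared between them were counted, so single values are uncertain. In bulk skin, fewer cells of a type and less RNA per cell cannot be told apart.

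The genes of the shaft sit in clusters, and the count was taken by cluster as well. In the KRTAP cluster of chromosome 16 (chr16:88610705-89571183, mm10), 28 of 32 compared genes were lower and 0 higher. In the cluster of type I keratins and KRTAPs of chromosome 11 (chr11:99232761-100269871), 50 of 59 were lower and 5 higher, the higher ones being the epidermal and wound keratins Krt10, Krt14, Krt16 and Krt17, and Krt42. The type II keratin cluster of chromosome 15 (chr15:101347444-102032027) divided more evenly, with 11 lower and 6 higher of 23.

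Among the inner root sheath keratins 5 of 7 were lower. Krt72 stood at 174 FPKM in hairloss and 1092 FPKM in wildtype skin, Krt28 at 174 FPKM in hairloss and 1014 FPKM in wildtype skin, and Krt26 at 107 FPKM in hairloss and 540 FPKM in wildtype skin. Krt73, a keratin of the inner root sheath cuticle, stood at 153 FPKM in hairloss and 545 FPKM in wildtype skin. The 3 remaining genes differed least and were the most highly expressed of the list: Krt27 at 1011 FPKM in hairloss and 2054 FPKM in wildtype skin, Krt71 at 1903 FPKM in hairloss and 2666 FPKM in wildtype skin, and Krt25 at 1339 FPKM in hairloss and 1505 FPKM in wildtype skin. The summed level of the 5 defining sheath markers was 4602 FPKM in hairloss and 8330 FPKM in wildtype skin, a smaller gap than that of the 4 measured markers of hair matrix and shaft, at 248 FPKM in hairloss and 1094 FPKM in wildtype skin. Trichohyalin (Tchh), which hardens the inner root sheath, was at 1419 FPKM in hairloss skin and listed at 0 in wildtype skin, one of the possible failed estimates, since wildtype skin of day 28 had 2076 FPKM.

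**Figure D2:**
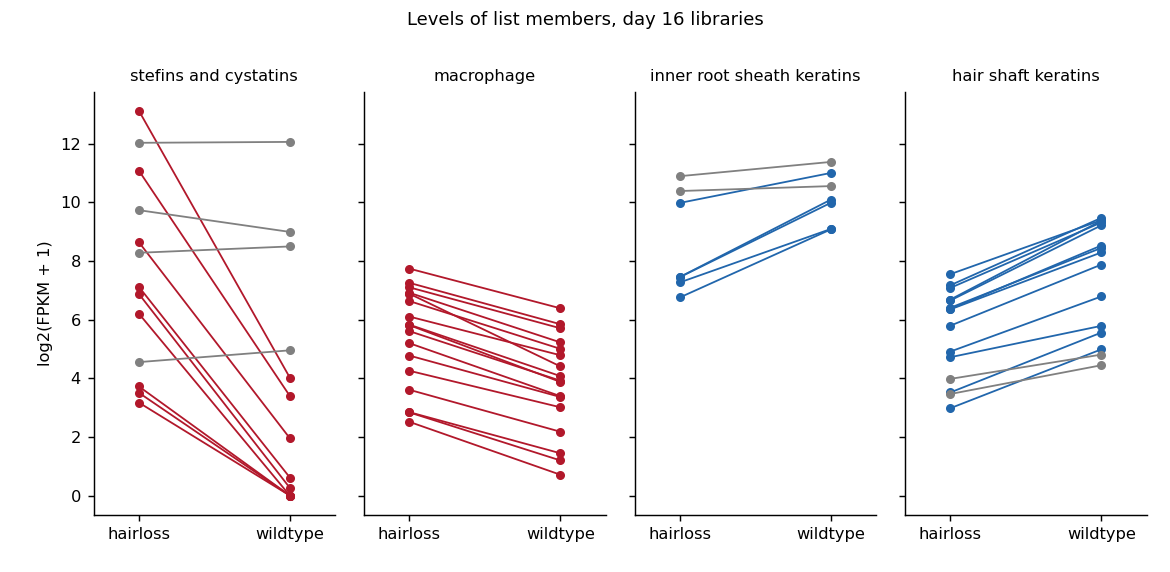
Levels of the compared members of 4 lists in the hairloss (left) and wildtype (right) library of day 16, as log2(FPKM + 1), 1 line a gene; red is at least 2-fold higher in hairloss skin, blue at least 2-fold lower, grey neither. The lines of 9 stefins run steeply, all 17 macrophage genes are higher in hairloss skin by between 1.24 and 2.48, and the grey lines of the inner root sheath panel are Krt71 and Krt25.

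Transcription factors and markers of the hair matrix were lower too: 18 of 25 were lower and Tchh alone was above 0, with a median of -1.43. Crym, a thyroid hormone binding protein used as a matrix marker, stood at 75.1 FPKM in hairloss and 527 FPKM in wildtype skin. The homeobox genes Dlx3 and Msx2 stood at 27.2 FPKM and 8.26 FPKM in hairloss skin, against 97.7 FPKM and 31.4 FPKM in wildtype skin. Foxn1, the factor missing in nude mice, had 5.16 FPKM in hairloss and 20.4 FPKM in wildtype skin. Hr, the corepressor mutated in hairless mice, did not share in this, at 145 FPKM in hairloss and 156 FPKM in wildtype skin, and neither did the vitamin D receptor gene Vdr, at 52.2 FPKM in hairloss and 56.2 FPKM in wildtype skin.

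The signals upstream of the matrix differed far less. None of 13 compared Wnt ligand genes, none of 15 Wnt receptor genes and none of 15 hedgehog pathway genes passed the rule, with medians of -0.37, -0.25 and -0.34. In the hedgehog pathway the receptor and target gene Ptch1 led, at 7.14 FPKM in hairloss and 14.3 FPKM in wildtype skin, and the target factor Gli1 had 2.33 FPKM in hairloss and 4.49 FPKM in wildtype skin. Among 9 Wnt targets Lef1 alone was lower, at 3.50 FPKM in hairloss and 13.9 FPKM in wildtype skin. Lef1 is itself a factor of the hair cortex precursors, and Axin2, the target most used as a readout of the pathway, stood at 7.70 FPKM in hairloss and 11.3 FPKM in wildtype skin. Of 12 Wnt inhibitors 1 was higher, the secreted antagonist Sfrp2, at 15.5 FPKM in hairloss and 5.58 FPKM in wildtype skin.

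BMP target genes differed more than the Wnt and hedgehog lists: 5 of 8 were lower and 0 higher, with a median of -1.09, although none of these lists was tested against another. Smad7 and Smad6, feedback inhibitors of the pathway, stood at 7.33 FPKM and 3.12 FPKM in hairloss skin, against 19.6 FPKM and 8.34 FPKM in wildtype skin, and Msx1 at 2.51 FPKM in hairloss and 7.15 FPKM in wildtype skin. The other lower genes were Msx2 and Id3, the latter at 24.2 FPKM in hairloss and 49.5 FPKM in wildtype skin. Msx1 and Msx2 are both in the hair matrix list too, so the lists are not independent. Id1 differed little, at 64.1 FPKM in hairloss and 66.8 FPKM in wildtype skin. Of the ligands and receptors 1 of 10 was lower, Bmp8a, at 2.54 FPKM in hairloss and 6.73 FPKM in wildtype skin. The decoy receptor Bambi, an antagonist of the pathway, stood at 4.99 FPKM in hairloss and 14.6 FPKM in wildtype skin.

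Among FGF genes, Fgf7, a growth factor made by dermal cells that acts on keratinocytes, was higher, at 7.95 FPKM in hairloss and 2.42 FPKM in wildtype skin. Fgf22 was lower, at 6.80 FPKM in hairloss and 28.5 FPKM in wildtype skin, and so was Fgf5, the factor whose loss gives angora mice by prolonging hair growth, at 2.49 FPKM in hairloss and 9.05 FPKM in wildtype skin. Of 9 ligands of the EGF family 3 were higher: Epgn at 8.95 FPKM in hairloss and 1.74 FPKM in wildtype skin, Nrg1 at 5.91 FPKM in hairloss and 0.906 FPKM in wildtype skin, and Hbegf at 22.5 FPKM in hairloss and 7.10 FPKM in wildtype skin. Btc was lower, at 3.59 FPKM in hairloss and 10.1 FPKM in wildtype skin. None of 9 EGF receptor and regulator genes and none of 13 Notch genes passed the rule. Of the cell cycle and replication genes all 33 lay above 0, with a median of 0.66, and 3 were past 2-fold, all subunits of the replicative helicase. They were Mcm2 at 12.8 FPKM in hairloss and 5.10 FPKM in wildtype skin, Mcm5 at 17.01 FPKM in hairloss and 7.07 FPKM in wildtype skin, and Mcm4 at 14.4 FPKM in hairloss and 6.14 FPKM in wildtype skin.

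**Figure D3:**
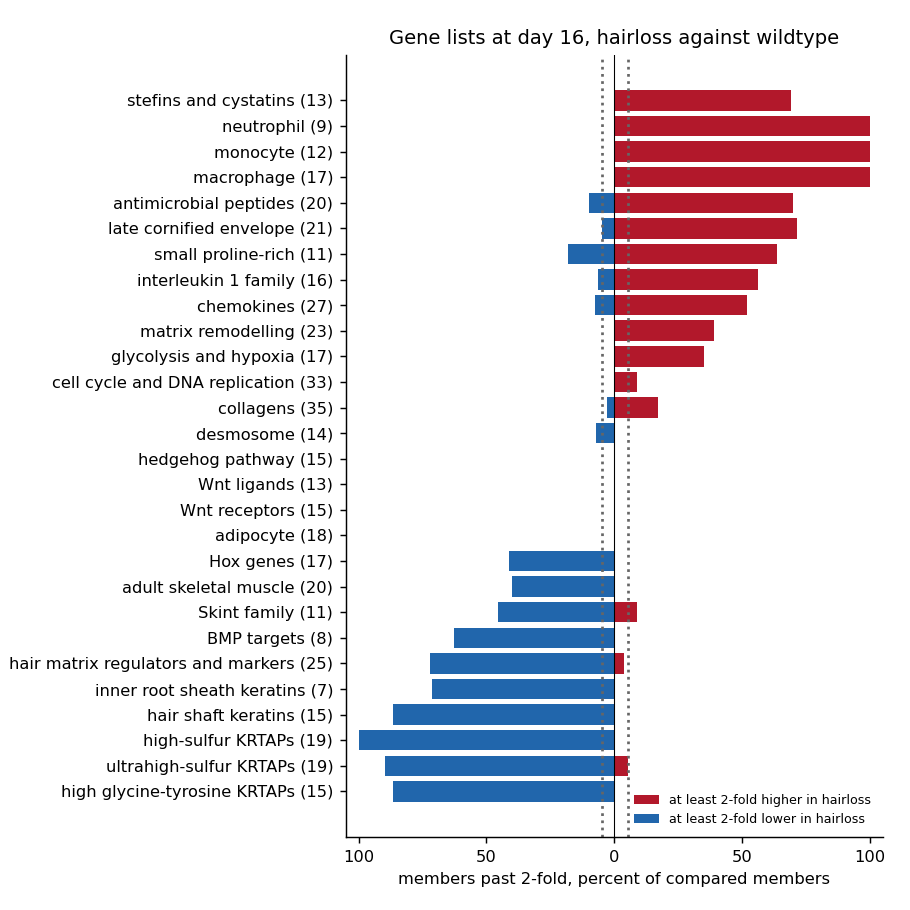
Share of each list's compared members (number in brackets) that were at least 2-fold higher (red, right) or lower (blue, left) in the hairloss library of day 16. Dotted lines mark the shares over all compared genes, 5.27% and 4.96%; the hedgehog, Wnt ligand, Wnt receptor and adipocyte lists have no bar. The monocyte list was chosen after its values were seen.

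Keratins of the companion layer and of wounded epidermis were higher, 5 of 6. Krt6b (chr15:101676023-101680287) had 570 FPKM in hairloss and 0.229 FPKM in wildtype skin, and its sister gene Krt6a 1387 FPKM in hairloss and 235 FPKM in wildtype skin. Krt16, the type I partner induced with them in wounds, stood at 614 FPKM in hairloss and 16.9 FPKM in wildtype skin, and Krt17 at 2847 FPKM in hairloss and 1337 FPKM in wildtype skin. Krt79, a keratin of the upper follicle and sebaceous duct, stood at 1212 FPKM in hairloss and 215 FPKM in wildtype skin. Krt75, which belongs to the companion layer of the growing follicle, was the member that was lower, at 128 FPKM in hairloss and 292 FPKM in wildtype skin.

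Keratins of the normal epidermis were divided. Krt1 and Krt10, the pair of the suprabasal layers, stood at 1914 FPKM and 1715 FPKM in hairloss skin, against 76.4 FPKM and 508 FPKM in wildtype skin, so that Krt1 rather than Krt10 made the larger difference. Krt14 of the basal layer stood at 4475 FPKM in hairloss and 1103 FPKM in wildtype skin, and its partner Krt5 at 2383 FPKM in hairloss and 1308 FPKM in wildtype skin. Krt77, a keratin of the sweat gland duct and of suprabasal mouse epidermis, was lower, at 38.5 FPKM in hairloss and 530 FPKM in wildtype skin. The desmosomes that join these cells differed little: 1 of 14 genes passed the rule, the hair cortex cadherin Dsg4, at 23.1 FPKM in hairloss and 79.6 FPKM in wildtype skin.

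The epidermal differentiation complex (chr3:90511034-93564643) carries most genes of the cornified envelope, and 31 of its 63 compared genes were higher and 11 lower. The higher ones include 6 Lce and 6 Sprr genes under 1 FPKM in wildtype skin, and Tchh, Rptn and Hrnr, listed at 0 there. These genes were compared through the hairloss library alone and had to be higher, so that part of the count carries no weight. Of the late cornified envelope (Lce) genes 15 of 21 were higher and 1 lower (median 1.63), and 6 of the 15 were under 1 FPKM in wildtype skin. Lce3c, of the subfamily induced by barrier injury, had 15.01 FPKM in hairloss and 0.375 FPKM in wildtype skin, Lce1k 26.4 FPKM in hairloss and 2.45 FPKM in wildtype skin, and Lce1e 29.0 FPKM in hairloss and 2.94 FPKM in wildtype skin. Lce1m, at the far end of the Lce array, was the one lower, at 14.6 FPKM in hairloss and 139 FPKM in wildtype skin. Of 15 small proline-rich (Sprr) genes 11 were compared, and 7 were higher and 2 lower, but 6 of the 7 were compared through the hairloss library alone. Sprr2a1 stood at 53.2 FPKM in hairloss and 0.228 FPKM in wildtype skin, Sprr2a3 at 94.2 FPKM in hairloss and 1.34 FPKM in wildtype skin, and Sprr2d at 39.8 FPKM in hairloss skin and listed at 0 in wildtype skin. These copies are near-identical, which makes single values uncertain. Sprr2h, at 17.1 FPKM in hairloss and 50.1 FPKM in wildtype skin, and Sprr4, at 161 FPKM in hairloss and 370 FPKM in wildtype skin, were the lower ones.

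The major envelope genes outside these families did not move as one. Flg, whose product filaggrin bundles keratin filaments and yields moisturising amino acids, stood at 1139 FPKM in hairloss and 73.2 FPKM in wildtype skin, while its neighbour Flg2 stood at 31.95 FPKM in hairloss and 102 FPKM in wildtype skin. Calm4, a calcium-binding protein of the epidermis, had 1672 FPKM in hairloss and 274 FPKM in wildtype skin, and Casp14, a protease that helps to process filaggrin, 76.5 FPKM in hairloss and 12.1 FPKM in wildtype skin. Repetin (Rptn) stood at 214 FPKM and hornerin (Hrnr) at 7.10 FPKM in hairloss skin, and both were listed at 0 in wildtype skin. In all 5 of these 18 genes were higher and 1 was lower. The enzymes that modify such proteins included 4 lower and 0 higher of 9: the peptidylarginine deiminases Padi3, Padi4 and Padi1, and the transglutaminase Tgm6. Padi3, which acts on trichohyalin, stood at 63.6 FPKM in hairloss and 206 FPKM in wildtype skin.

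**Figure D4:**
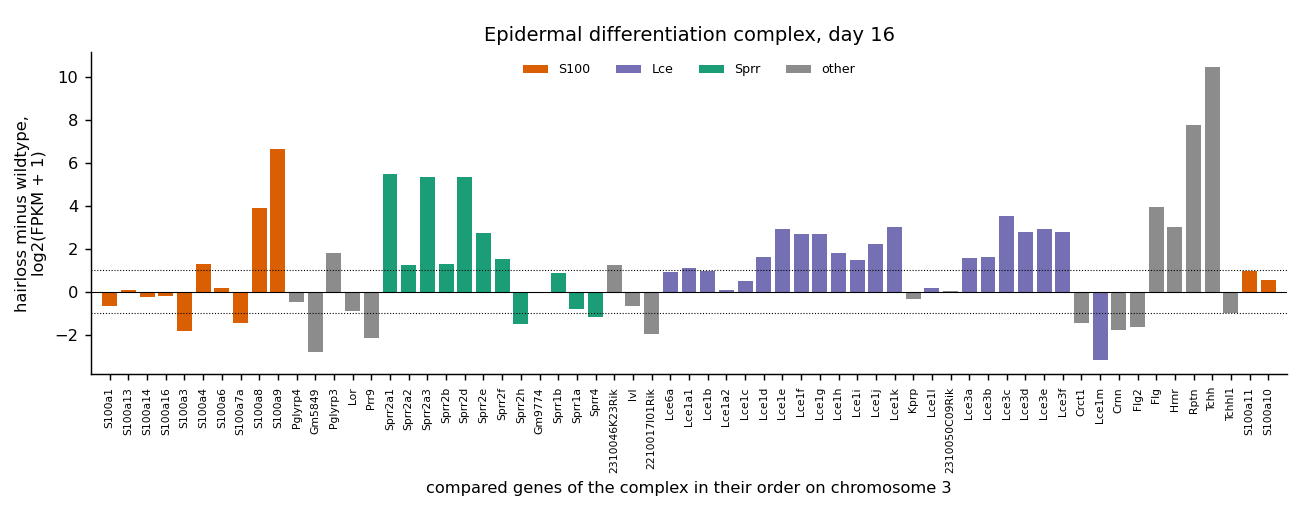
Difference at day 16, hairloss minus wildtype on log2(FPKM + 1), for the 63 compared genes of the epidermal differentiation complex in their order on the chromosome, coloured by family, with dotted lines at a 2-fold difference. Tall bars stand at S100a9, at the Sprr2 genes and at Rptn and Tchh, which were listed at 0 in wildtype skin, and Lce1m is the long downward bar of the Lce family.

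The largest difference upward among genes above 0 in both libraries was that of stefin A3 (Stfa3, chr16:36450537-36455392), a cysteine protease inhibitor, at 8940 FPKM in hairloss and 15.3 FPKM in wildtype skin. It lies in a cluster of 10 stefin genes (chr16:36119946-36455392) of which 9 were higher and 0 lower, 6 of them under 1 FPKM in wildtype skin. Cstdc5 stood at 2167 FPKM in hairloss and 9.54 FPKM in wildtype skin, Stfa1 at 399 FPKM in hairloss and 2.88 FPKM in wildtype skin, and Stfa2 at 138 FPKM in hairloss and 0.532 FPKM in wildtype skin. Stfa2l1, Cstdc6, Csta3 and Csta2 stood between 8.01 FPKM and 72.8 FPKM in hairloss skin and were listed at 0 in wildtype skin. The tenth gene, Csta1, had 22.5 FPKM in hairloss and 30.0 FPKM in wildtype skin. Stefin copies are close in sequence, so their single values are uncertain.

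Clade B serpins, another family of protease inhibitors, had 7 of 16 higher, 4 of these under 1 FPKM in wildtype skin, and 3 lower, 2 of these under 1 FPKM in hairloss skin. Serpinb3a stood at 22.8 FPKM in hairloss and 0.1004 FPKM in wildtype skin, and Serpinb12 at 44.1 FPKM in hairloss and 4.25 FPKM in wildtype skin. Serpinb6e stood at 0.394 FPKM in hairloss and 37.4 FPKM in wildtype skin, and its near relative Serpinb6d at 14.1 FPKM in hairloss and 0.0286 FPKM in wildtype skin, a value of under 3 fragments. Among the serine proteases, 5 of 9 compared genes of the kallikrein cluster of chromosome 7 (chr7:43690418-44229618) were higher. Klk6 stood at 258 FPKM in hairloss and 44.1 FPKM in wildtype skin, and Klk13 at 18.1 FPKM in hairloss and 1.80 FPKM in wildtype skin. Their inhibitor Spink5 differed little, at 86.4 FPKM in hairloss and 109 FPKM in wildtype skin.

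Genes of antimicrobial defence were higher in 14 of 20 cases, 7 of which were under 1 FPKM in wildtype skin, and lower in 2 (median 1.66). S100a9 and S100a8, the subunits of calprotectin, which keratinocytes and neutrophils both make, stood at 1748 FPKM and 1984 FPKM in hairloss skin, against 16.6 FPKM and 134 FPKM in wildtype skin. Lcn2, a protein that withholds iron from bacteria, stood at 91.9 FPKM in hairloss and 3.95 FPKM in wildtype skin, and Slpi, an elastase inhibitor, at 50.1 FPKM in hairloss and 2.53 FPKM in wildtype skin. Defb14, a defensin, stood at 22.2 FPKM in hairloss skin and was listed at 0 in wildtype skin. The acute-phase and complement list was chosen after its values were seen, so its count carries no weight. It had 8 of 11 higher, 3 of them under 1 FPKM in wildtype skin, and 0 lower. It was led by Saa3 at 177 FPKM in hairloss and 3.42 FPKM in wildtype skin. Of the pore-forming gasdermins, Gsdmc had 39.7 FPKM in hairloss and 0.0762 FPKM in wildtype skin.

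Promoters from 3 groups of genes are shown, to give the letters behind the motif counts that follow. The Sprr genes among them went both ways, as given above. RefSeq (GRCm38.p6) gave a promoter for 10513 of the 13452 genes, and the 250 bases before the start were searched for TATAAA on the gene's strand and, on both strands, for TGANTCA (the AP-1 site), CTTTGAA (a LEF/TCF site), GGGANTTCC (a kappa B site) and TTGCNNAA (a C/EBP site). Capitals mark every match. Sprr2d (chr3:92338890-92339139, plus strand) stands for the Sprr genes, Stfa3 (chr16:36455393-36455642, minus strand) for the stefins, and Krt31 (chr11:100050552-100050801, minus strand) and Krtap8-1 (chr16:89487953-89488202, minus strand) for the shaft.
Sprr2d: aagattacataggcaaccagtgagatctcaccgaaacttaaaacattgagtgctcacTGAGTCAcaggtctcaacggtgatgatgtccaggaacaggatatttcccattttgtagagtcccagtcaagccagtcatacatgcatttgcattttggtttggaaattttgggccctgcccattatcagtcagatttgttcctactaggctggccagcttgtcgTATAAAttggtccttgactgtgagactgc
Stfa3: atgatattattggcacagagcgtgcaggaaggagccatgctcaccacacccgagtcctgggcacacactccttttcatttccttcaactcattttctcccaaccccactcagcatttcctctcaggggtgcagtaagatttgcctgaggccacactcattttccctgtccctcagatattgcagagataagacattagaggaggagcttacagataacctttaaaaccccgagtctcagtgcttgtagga
Krt31: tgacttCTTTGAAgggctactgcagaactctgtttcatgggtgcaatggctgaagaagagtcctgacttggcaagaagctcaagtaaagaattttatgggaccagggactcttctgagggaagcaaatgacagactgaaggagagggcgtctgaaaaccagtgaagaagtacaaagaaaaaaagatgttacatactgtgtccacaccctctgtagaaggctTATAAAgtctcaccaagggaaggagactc
Krtap8-1: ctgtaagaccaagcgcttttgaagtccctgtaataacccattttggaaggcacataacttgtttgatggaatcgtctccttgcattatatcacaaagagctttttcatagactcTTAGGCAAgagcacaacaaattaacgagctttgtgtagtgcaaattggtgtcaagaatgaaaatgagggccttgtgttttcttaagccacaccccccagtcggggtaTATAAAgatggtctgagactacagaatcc
In Sprr2d the AP-1 match lies 193 to 187 bases and the TATA match 29 to 24 bases before the start, and Krt31 holds a LEF/TCF match 244 to 238 bases before it. The AP-1 letters stood in 7 of 11 Sprr promoters and in 0 of 20 Lce and 0 of 9 hair shaft keratin promoters, against 4.89% of all. They also stood in 4 of 17 ultrahigh-sulfur and 3 of 16 high-sulfur KRTAP promoters, and in 9.91% of all higher and 11.8% of all lower genes with a promoter. The LEF/TCF letters stood in 5 of 9 hair shaft keratin and 6 of 16 high-sulfur KRTAP promoters, against 3.35% of all. They stood in 0 of 17 ultrahigh-sulfur KRTAP promoters and in 1 of 14 promoters of the glycine-tyrosine KRTAPs, the group of Krtap8-1. TATAAA stood in 15 of 17 ultrahigh-sulfur KRTAP and 7 of 11 Sprr promoters, against 5.15% of all. It stood in 0 of 10 promoters of the stefin and cystatin list, in 13.8% of higher and in 22.8% of lower genes. The kappa B letters stood in 2.02% of higher and 0.83% of lower genes, against 1.87% of all. For the C/EBP letters these shares were 14.5%, 11.4% and 7.81%. Copies within a family share sequence, so these counts are not independent, and a match is a description of the letters, not of binding.

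Cytokines of barrier tissues were higher. Of 16 interleukin 1 family genes 9 were higher and 1 lower (median 1.41). Il1f6 and Il1f8, which encode members of the IL-36 branch that keratinocytes release, stood at 15.3 FPKM and 19.8 FPKM in hairloss skin, against 0.456 FPKM and 1.92 FPKM in wildtype skin. Il1b, a pyrogenic cytokine of the family, stood at 11.8 FPKM in hairloss and 1.03 FPKM in wildtype skin, and the alarmin gene Il33 at 15.9 FPKM in hairloss and 2.13 FPKM in wildtype skin. The member that was lower was Il1f10, at 4.47 FPKM in hairloss and 31.1 FPKM in wildtype skin. Of 19 other inflammatory cytokine genes 8 were compared. All 8 lay above 0, but all except Csf1 and Tnf were under 1 FPKM in wildtype skin and could only lie above 0. Past the rule 3 were higher, 2 of them under 1 FPKM in wildtype skin. Csf1, a growth factor of macrophages, stood at 12.6 FPKM in hairloss and 4.96 FPKM in wildtype skin. The other higher genes stood low in both libraries, Il6 at 1.10 FPKM in hairloss and 0.0364 FPKM in wildtype skin, and Il23a at 1.21 FPKM in hairloss and 0.0658 FPKM in wildtype skin.

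Of 43 chemokine genes 27 were compared, and 14 were higher and 2 lower. Of the 14, 8 were compared through the hairloss library alone, and the median was 1.0002 over the compared and 0.61 over all 43. Those that attract neutrophils included Cxcl1, at 13.04 FPKM in hairloss and 0.0545 FPKM in wildtype skin, and Cxcl5, at 12.4 FPKM in hairloss and 0.0432 FPKM in wildtype skin. Those that attract monocytes included Ccl8, the most highly expressed, at 697 FPKM in hairloss and 77.7 FPKM in wildtype skin, and Ccl7, at 18.5 FPKM in hairloss and 2.01 FPKM in wildtype skin. Ccl20, a ligand of Ccr6, stood at 21.1 FPKM in hairloss and 0.909 FPKM in wildtype skin. The matching receptors Cxcr2 and Ccr2 stood at 7.59 FPKM and 17.96 FPKM in hairloss skin, against 0.269 FPKM and 3.77 FPKM in wildtype skin. Of 15 chemokine receptor genes 5 were higher, 3 of them under 1 FPKM in wildtype skin, and Ccr4, a receptor of skin-homing T cells, was the one lower, at 1.57 FPKM in hairloss and 5.46 FPKM in wildtype skin.

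Myeloid cell genes were higher. All 17 macrophage genes passed the rule, with a narrow spread of 1.24 to 2.48 and a median of 1.63. The mannose receptor Mrc1 stood at 55.2 FPKM in hairloss and 13.7 FPKM in wildtype skin, and Adgre1, which encodes F4/80, at 35.7 FPKM in hairloss and 9.49 FPKM in wildtype skin. The summed level of the 5 defining macrophage markers was 381 FPKM in hairloss and 123 FPKM in wildtype skin. The 12 genes of a monocyte list lay between 1.66 and 2.69, 1 of them under 1 FPKM in wildtype skin. That list was chosen after its values were seen, so its count carries no weight. Of 13 neutrophil genes 9 reached 1 FPKM in either library, and all but Mmp9 reached it in hairloss skin alone, so their count carries no weight. Mmp9, a protease that macrophages also make, stood at 15.6 FPKM in hairloss and 1.62 FPKM in wildtype skin. The sum of the 6 defining neutrophil markers was 24.4 FPKM in hairloss and 1.12 FPKM in wildtype skin, where 2 were at 0. Mast cell genes were higher in 5 of 9 cases, and the sum of their 4 defining markers was 355 FPKM in hairloss and 134 FPKM in wildtype skin. Genes of alternatively activated macrophages, also chosen after values were seen, included Chil1 at 201 FPKM in hairloss and 3.34 FPKM in wildtype skin and Retnla at 93.2 FPKM in hairloss and 28.8 FPKM in wildtype skin. What part these cells have in the cytokine and antimicrobial differences was not tested.

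Genes of lymphoid and resident cells did not share a direction. The 3 measured T cell markers summed to 6.60 FPKM in hairloss and 13.2 FPKM in wildtype skin. Among 11 compared T cell genes 0 were lower past the rule, although 5 lay below 0. Cd3e, 1 of the 3 markers, stood at 0.589 FPKM in hairloss and 1.87 FPKM in wildtype skin, low values whose fold this scale understates. The 3 that were higher, Gzmb, Il2rb and Cd4, were all compared through the hairloss library alone, with Cd4 at 2.87 FPKM in hairloss and 0.603 FPKM in wildtype skin and Cd3g at 5.15 FPKM in hairloss and 9.87 FPKM in wildtype skin. Cd207, the marker of Langerhans cells, stood at 5.32 FPKM in hairloss and 6.64 FPKM in wildtype skin. The Skint genes, which encode keratinocyte proteins, 1 of which (Skint1) selects the gamma-delta T cells of mouse epidermis, had 5 of 11 lower and 1 higher. Skint1 was the higher one, at 71.2 FPKM in hairloss and 21.5 FPKM in wildtype skin, and Skint5 the lowest, at 0.874 FPKM in hairloss and 15.6 FPKM in wildtype skin. None of 18 adipocyte genes passed the rule, and the 4 defining markers summed to 592 FPKM in hairloss and 806 FPKM in wildtype skin. Of 11 compared melanocyte and pigment genes 3 were lower, 1 of them under 1 FPKM in hairloss skin, and 0 higher (median -0.27). They were Mlana, at 1.002 FPKM in hairloss and 6.03 FPKM in wildtype skin, Trpm1, at 0.801 FPKM in hairloss and 3.55 FPKM in wildtype skin, and Mitf, at 13.3 FPKM in hairloss and 29.8 FPKM in wildtype skin. Of the 5 defining melanocyte markers Mlana alone was lower, while Dct stood at 15.6 FPKM in hairloss and 13.5 FPKM in wildtype skin.

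In the dermis, 9 of 23 matrix remodelling genes were higher, 4 of them under 1 FPKM in wildtype skin, and 0 lower (median 0.87). The protease inhibitor Timp1 stood at 65.0 FPKM in hairloss and 3.31 FPKM in wildtype skin, tenascin C (Tnc), a matrix protein of healing wounds, at 139 FPKM in hairloss and 26.8 FPKM in wildtype skin, and Mmp13, a collagenase, at 4.47 FPKM in hairloss and 0.135 FPKM in wildtype skin. Of 35 compared collagens 6 were higher and Col1a1 alone was lower, with the limit given above. Col12a1 stood at 95.3 FPKM in hairloss and 20.8 FPKM in wildtype skin, and Col3a1 was at 1801 FPKM in hairloss and 1706 FPKM in wildtype skin, with the same limit, since it was listed at 0 in hairloss skin of days 0 and 28 and in wildtype skin of day 19. The fibroblast markers Dcn and Pdgfra stood at 499 FPKM and 41.0 FPKM in hairloss skin, against 396 FPKM and 22.7 FPKM in wildtype skin. The marker Col1a2 went the other way, at 646 FPKM in hairloss and 1215 FPKM in wildtype skin. With it the 5 defining fibroblast markers summed to 1435 FPKM in hairloss and 1826 FPKM in wildtype skin. Of 11 fibroblast genes 0 were higher and Dpp4 alone was lower (median 0.33), at 5.51 FPKM in hairloss and 15.3 FPKM in wildtype skin.

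Metabolic genes showed a narrower set of differences. Of 17 genes of glycolysis and hypoxia 6 were higher and 0 lower (median 0.82). The glucose transporter Slc2a1 led, at 37.6 FPKM in hairloss and 5.19 FPKM in wildtype skin, with Pgk1 at 183 FPKM in hairloss and 57.9 FPKM in wildtype skin and Pkm at 351 FPKM in hairloss and 128 FPKM in wildtype skin. Retinoid enzymes and carriers included 4 higher and 1 lower of 15, among them Aldh1a3, which makes retinoic acid, at 53.7 FPKM in hairloss and 5.64 FPKM in wildtype skin, and the carrier Crabp2 at 157 FPKM in hairloss and 49.3 FPKM in wildtype skin. Of 8 genes of the aryl hydrocarbon receptor 3 were higher, with its main target Cyp1a1 at 140 FPKM in hairloss and 37.2 FPKM in wildtype skin. Ribosomal protein genes, 72 in number, had a median of -0.24 and 1 past the rule, and the oxidative phosphorylation list had 6 of 73 lower and 0 higher. Hepcidin 2 (Hamp2), of the family of the iron hormone hepcidin, was the lowest gene of the whole comparison above 0 in both libraries, at 0.278 FPKM in hairloss and 134 FPKM in wildtype skin, and hepcidin itself (Hamp) was listed at 0 in hairloss skin and at 5.29 FPKM in wildtype skin. The iron exporter Slc40a1, which hepcidin controls, stood at 58.5 FPKM in hairloss and 145 FPKM in wildtype skin.

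Among the largest differences were also genes outside the groups above. Cyp2g1, a cytochrome P450, stood at 1.91 FPKM in hairloss and 65.1 FPKM in wildtype skin, Car6, a secreted carbonic anhydrase, at 17.4 FPKM in hairloss and 297 FPKM in wildtype skin, and the phospholipase gene Plb1 at 3.36 FPKM in hairloss and 53.1 FPKM in wildtype skin. Slurp2, a Ly6-type protein of keratinocytes, stood at 34.7 FPKM in hairloss and 0.466 FPKM in wildtype skin.

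Skeletal muscle genes, which mark the muscle sheet beneath mouse skin, were all below 0 and 8 of 20 were lower, with a median of -0.89. The fast myosin gene Myh4 stood at 2.60 FPKM in hairloss and 79.2 FPKM in wildtype skin, the fast-fibre calcium buffer gene Pvalb at 16.7 FPKM in hairloss and 112 FPKM in wildtype skin, and Acta1, the sarcomeric actin, at 272 FPKM in hairloss and 537 FPKM in wildtype skin. The sources used here do not say how much muscle lay in each piece of skin. Hox genes, which carry body position, were compared in 17 of 39 cases, and 7 were lower, 4 of them under 1 FPKM in hairloss skin, and 0 higher. Of these, 5 lie in the HoxB cluster (chr11:96194316-96368256), where 5 of 6 compared genes were lower, among them Hoxb7 at 0.434 FPKM in hairloss and 3.70 FPKM in wildtype skin and Hoxb3 at 1.98 FPKM in hairloss and 7.87 FPKM in wildtype skin. The other two were Hoxc6, at 1.60 FPKM in hairloss and 4.43 FPKM in wildtype skin, and Hoxc13, a regulator of hair keratins, at 16.05 FPKM in hairloss and 40.0 FPKM in wildtype skin. None of the 4 compared HoxD and 2 compared HoxA genes passed the rule. Whether the 2 libraries came from the same body site was not tested.

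The same comparison at the other days shows which differences were shared. Of 13232 genes compared at day 0, 66 were higher in hairloss skin (0.499%) and 65 lower (0.491%), or 0.99% in either direction. At day 19, 798 of 13683 were higher (5.83%) and 718 lower (5.25%), or 11.1% in all, and at day 28, 695 of 13441 were higher (5.17%) and 764 lower (5.68%), or 10.9% in all. Each day has its own pair of libraries, so no library is shared. The macrophage genes were past the rule at day 16 and at no other day, with 0 of 17 compared at days 0, 19 and 28 and medians of -0.32, 0.08 and 0.35 there. The stefin list had medians of 0.49, 3.72, 4.04 and 0.23 at days 0, 16, 19 and 28. At day 28, however, 5 of its 9 genes compared there were higher and 0 lower, and Stfa3 stood at 3978 FPKM in hairloss and 45.9 FPKM in wildtype skin. The glycolysis list had medians of 0.16, 0.82, 0.63 and 0.72. Muscle genes went the other way at day 28, with medians of 0.31, -0.89, -1.11 and 1.32.

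**Figure D5:**
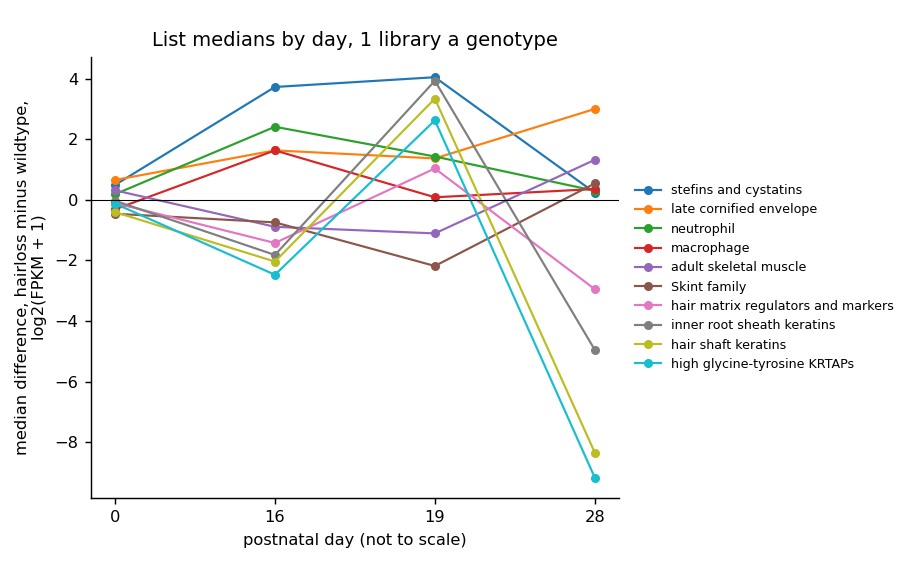
Median difference of 10 gene lists at days 0, 16, 19 and 28, hairloss minus wildtype on log2(FPKM + 1), over the members compared at day 16, with 1 library a genotype at each day and so no error bars. The macrophage line stands above 1 at day 16 alone, the stefin line at days 16 and 19, although 5 of 9 genes of that list compared at day 28 were higher then too, and the hair lines fall, rise and fall again.

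Whether the difference at day 16 differs from that at the other days was tested with limma on all 8 libraries, which leaves 2 residual degrees of freedom. The SE rests on how the genotype difference varied over days 0, 19 and 28, and is not a replicate error. Pairs not matched for sex are part of that spread. Ddx3y was at 0 in hairloss skin of days 0 and 28, against 16.3 FPKM and 16.5 FPKM in wildtype skin. Of 18724 genes of every type 31 passed an adjusted p of 0.05 (0.166%), and none of them was among the 14308 protein-coding genes. Without adjustment 349 protein-coding genes lay under 0.05 (2.44%). The smallest adjusted p of a coding gene was 0.224 by limma, for Amtn, which encodes the enamel protein amelotin, with a day 16 difference of -3.38 ± 0.34 (SE) relative to the mean of the other days. It stood at 1.29 FPKM in hairloss and 21.6 FPKM in wildtype skin. Next by adjusted p in limma came Arg2 (-2.20 ± 0.28, adjusted p 0.435), Rptn, one of the possible failed estimates (4.27 ± 0.57, adjusted p 0.502), and Alox15 (2.87 ± 0.38, adjusted p 0.502). They were followed in limma by Mat2a (-2.23 ± 0.31, adjusted p 0.560), Ccr2 (1.86 ± 0.27, adjusted p 0.632) and Mrc1 (1.86 ± 0.28, adjusted p 0.701). No difference of a coding gene was thus shown by this test to be particular to day 16, the macrophage genes included.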

How the data were processed

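The 8 libraries hold skin RNA of 2 genotypes at 4 ages; RNA came from RNeasy columns and libraries from TruSeq kits, per the labels' protocols. The authors deposited 1 value per Ensembl gene and library with no unit in the header. These deposited values are read here as FPKM, which was inferred, since Cuffdiff reports FPKM. The submitters' processing notes name cutadapt, Cuffdiff and mm10 and give no version. The aligner, the annotation and the strandedness are not stated in the labels.

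Symbols came from the files (21795 genes) or GENCODE M21, which also gave gene types and coordinates. Depth was estimated from genes with 1 transcript of over 1000 bases. Values were compared as log2(FPKM + 1). With 1 library per group no test was made at day 16, and genes past a 2-fold size rule were counted. The difference at day 16 was compared with that at the other days by limma 3.58.1 in R 4.3.3 (age as a block, eBayes with trend and robust, two-sided, Benjamini-Hochberg adjusted over 18724 genes). On data simulated for this test it recovered 10%, 90%, 100% and 100% of genes changed by 2, 4, 8 and 32-fold, with 7 false calls among 157. The simulated spread was 0.25 on the log2 scale for every gene, with no genotype difference at the other days. Changes were placed in the more highly expressed genes only. Real differences varied more between days for some genes, such as Myh4 with an SE of 1.15, so these rates do not give the power of the test on the real data. Other steps used Python 3.11.15.

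Genes and the 87 lists were chosen with earlier results of these data known, and 6 lists after the values were seen. Named genes are the 15 largest in each direction, up to 5 largest per list, defining markers, hair loss and sex-linked genes, and members that resolve a small count. Id1, Spink5, Col3a1, Krt82, Krt84, Krtap8-1 and Gapdh were named after their values were seen. Alternatives changed the pseudocount, the scaling, the minimum value, the fold, the gene types, the days in the fit and the treatment of possible failed estimates.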

Additional observations from a re-analysis of the deposited data

Results flagged for a closer look

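The hair lists changed direction between days 16 and 19. The medians of the 6 hair lists below were lower in the hairloss library at day 16 and higher at day 19. At day 19 the medians, hairloss minus wildtype on log2(FPKM + 1), were 3.34 for hair shaft keratins (-2.04 at day 16), 2.66 for high-sulfur KRTAPs (-2.10), 2.29 for ultrahigh-sulfur KRTAPs (-2.25) and 2.62 for glycine-tyrosine KRTAPs (-2.48). They were 3.93 for inner root sheath keratins (-1.82 at day 16) and 1.03 for hair matrix genes (-1.43). At day 28 the medians were below 0 again, at -8.35 for hair shaft keratins, -6.61 for high-sulfur and ultrahigh-sulfur KRTAPs, -9.17 for glycine-tyrosine KRTAPs, -4.95 for inner root sheath keratins and -2.95 for hair matrix genes. The difference between the days was not tested for these lists, since each day has 1 library a genotype.

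Outside the protein-coding genes, 2720 noncoding and pseudogene loci were compared at day 16, and 155 were higher in the hairloss library, while 528 were lower. Of 319 antisense loci 5 were higher and 58 lower, and of 537 loci annotated as yet to be experimentally tested 2 were higher and 95 lower. Lower loci outnumbered higher ones in the whole set of 2720 too, so this is not particular to these classes. Rmrp, the RNA of a ribonuclease, stood at 646 FPKM in hairloss and 9059 FPKM in wildtype skin. Antisense loci overlap other genes and the sources do not say whether reads were counted by strand, so their values cannot be told apart from those of their partners.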

How the results depend on the processing

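The counts of 709 higher and 667 lower genes became 291 and 364 with a pseudocount of 5, which shrinks low genes by construction, 1008 and 988 with one of 0.1, and 148 and 177 at 4-fold. With all gene types they were 864 and 1196. The share of calls that were higher was 51.5%, against 44.4% with a pseudocount of 5, 54.2% after scaling to the median ratio and 41.9% with all gene types. With a pseudocount of 5 these list medians fell within 2-fold: BMP targets -0.70, small proline-rich genes 0.53, antimicrobial peptides 0.95, chemokines 0.49, interleukin 1 family 0.90, neutrophil 0.96, mast cell 0.96, B cell (1 compared gene, Cd79b) 0.33, alternatively activated macrophage 0.77, eosinophil and basophil 0.58 and slow-twitch muscle -0.71. With no minimum value, so did small proline-rich genes (0.88), chemokines (0.61), mast cell (0.85), B cell (0.30), alternatively activated macrophage (0.94) and eosinophil and basophil genes (0.94), the last being 0.14 with a minimum of 5 FPKM. Of 608 list medians 583 kept their side of 2-fold and none of the others changed sign, and of 5547 values of single genes 5396 did so. The 31 calls of the limma test were 40 with a pseudocount of 5 (1 coding), 32 without trend and robust, and 31 after scaling without keratins and KRTAPs. They were 0 with a pseudocount of 0.1, without day 0, without day 19, without day 28 and without possible failed estimates, where 705, 281, 912, 946 and 598 genes had an unadjusted p under 0.05. No paired analysis was possible because the labels carry no replicate numbers and each group is 1 library, apart from the limma test over all 8 libraries, which pairs the genotypes by age. Depth limits genes under about 0.1 FPKM, where a value rests on a few fragments.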

Other observations

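A further pair of lists, chosen after their values were seen, add cell types that the account above does not describe. Because they were so chosen, their counts carry no weight. Genes of eosinophils and basophils were higher in 5 of 6 compared cases and lower in 0, among 11 listed, and since those 5 reached 1 FPKM in hairloss skin alone, the count carries no weight. They include Ccr3, the eotaxin receptor, at 3.14 FPKM in hairloss and 0.331 FPKM in wildtype skin, and Mcpt8, a basophil protease, at 2.93 FPKM in hairloss and 0.0445 FPKM in wildtype skin. Alox15, an enzyme of eosinophils and macrophages, stood at 12.5 FPKM in hairloss and 0.657 FPKM in wildtype skin. Slow-twitch muscle genes were lower in 6 of 7 cases, 5 of them under 1 FPKM in hairloss skin, and higher in 0, with a median of -1.77, and Myl2, a slow myosin light chain, stood at 0.623 FPKM in hairloss and 15.99 FPKM in wildtype skin.

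Sebaceous gland genes went both ways, 4 of 16 lower and 1 higher. Elovl3, a fatty acid elongase of the gland, stood at 79.5 FPKM in hairloss and 24.9 FPKM in wildtype skin, and Awat2, which makes wax esters, at 8.51 FPKM in hairloss and 23.98 FPKM in wildtype skin. Among immediate early genes Fos stood at 34.9 FPKM in hairloss and 7.73 FPKM in wildtype skin, and 2 of 12 were higher and 0 lower. The clock gene Bhlhe40 stood at 39.6 FPKM in hairloss and 10.2 FPKM in wildtype skin, the only one of 15 clock genes past 2-fold.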
